A study of Mus musculus with 12 samples.

Results

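The cell cycle and proliferation genes examined in these kidneys are 42 mouse genes. They were chosen by name from general knowledge, with earlier results of these data known. A gene counted as measured where a probe set carried its symbol alone, and where several did, the one with the highest mean over the arrays was taken. This gave 41 of the 42 genes, among 19934 genes tested. Ccnb1, which encodes cyclin B1, had no such probe set and is not analysed here. By textbook role 6 of the 41 control G1 and entry into S phase, 12 act in S phase and 23 act in G2 and mitosis.

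The study compared whole kidney RNA of female mice of the C57BL/6 background on 12 arrays, with 4 mice in each of 3 genotypes. The mutants were Mut-/- and carried the transgene TgINS-Alb-Mut, the heterozygotes were Mut+/- and the wild-type mice Mut+/+, and all 3 groups had eaten a high-protein diet for 2 months. Mut, now Mmut, encodes the mitochondrial enzyme methylmalonyl-CoA mutase, whose loss causes methylmalonic acidemia with kidney disease, and the design asks what changes in the kidney. The labels name the transgene in the mutants only, so its presence and the loss of the kidney's own gene cannot be told apart here; Alb is the symbol of the albumin gene of hepatocytes, and the tissue in which the transgene is active is not stated. Ages are not given in the sources used here. All values below are RMA signals on the log2 scale, and the number of arrays limits their precision.

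The targeted gene separated the genotypes. Mmut had signals of 8.47, 8.33, 8.2 and 8.42 in the mutants, 9.93, 9.90, 9.87 and 9.97 in the heterozygotes, and 10.47, 10.50, 10.56 and 10.60 in the wild-type mice. The 3 groups did not overlap. The limma adjusted p was 1.4e-10 between mutants and wild-type mice, 1.14e-08 between mutants and heterozygotes, and 0.000801 between heterozygotes and wild-type mice. Whether the probes lie in the deleted part of the gene, or read the transgene, is not stated. Defining kidney markers were high on all arrays: Slc34a1, a phosphate transporter of the proximal tubule, lay between 13.17 and 13.43, and Umod, which encodes uromodulin of the thick ascending limb, between 13.17 and 13.34. The mean signals of longer marker lists of these segments were lower in the mutants and are given with the other cell markers.

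In dividing cells, D-type cyclins with Cdk4 and cyclin E with Cdk2 inactivate the retinoblastoma protein, which frees E2F transcription factors to induce the genes of DNA replication. Later, Foxm1 and Mybl2 drive the genes of G2 and mitosis, whose promoters often carry a cell cycle genes homology region (CHR) near CCAAT boxes. The adult kidney divides little, and tubule cells can re-enter the cycle after injury.

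The promoters of the genes differed by class. RefSeq promoter sequences of build GRCm38.p6, from 250 bases before to 50 bases after the start site, were found for 33 of the 41 genes, with 35 promoters. The motifs searched were CHR as TTTGAA, the CCAAT box as CCAAT, and E2F sites as TTTCCCGC, TTTCGCGC, TTTGCCGC or TTTGGCGC, each on both strands, so that TTCAAA or ATTGG also counts. CHR was present in 14 of 19 promoters of G2 and mitosis genes (73.7%) and in 1 of 12 of S phase genes (8.33%), against 17.9% of all 32851 promoters. E2F sites ran the other way, with 6 of 12 S phase promoters (50%) and 1 of 19 G2 and mitosis promoters (5.26%), against 2.26% of all. CCAAT boxes were in 16 of 19 G2 and mitosis promoters (84.2%) and 9 of 12 S phase promoters (75.0%), against 37.4% of all. A match describes these letters and not a bound site.

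Printed here, 5′ to 3′ with the matches in capitals, are the promoters of Kif23 and Rrm1, which differed most between the genotypes, of Cdk1, Ccnb2 and Mki67, which varied together between mice, and of Mcm6 as an S phase promoter with E2F sites. In Mcm6 a pair of E2F matches on opposite strands overlap in 1 run of capitals.
Kif23 (chr9:61946750-61947049, minus strand): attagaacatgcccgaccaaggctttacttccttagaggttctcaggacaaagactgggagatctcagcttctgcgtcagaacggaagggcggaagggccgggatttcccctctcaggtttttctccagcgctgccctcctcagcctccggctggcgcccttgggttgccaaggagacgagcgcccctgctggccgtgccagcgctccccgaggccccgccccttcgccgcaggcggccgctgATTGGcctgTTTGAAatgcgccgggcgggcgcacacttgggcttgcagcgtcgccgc
Rrm1 (chr7:102441445-102441744, plus strand): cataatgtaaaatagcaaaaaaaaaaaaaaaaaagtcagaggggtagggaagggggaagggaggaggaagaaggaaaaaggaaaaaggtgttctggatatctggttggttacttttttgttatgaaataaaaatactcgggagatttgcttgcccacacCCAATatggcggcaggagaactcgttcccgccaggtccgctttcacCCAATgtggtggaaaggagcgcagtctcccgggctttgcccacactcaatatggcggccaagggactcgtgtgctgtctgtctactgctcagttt
Cdk1 (chr10:69352863-69353162, minus strand): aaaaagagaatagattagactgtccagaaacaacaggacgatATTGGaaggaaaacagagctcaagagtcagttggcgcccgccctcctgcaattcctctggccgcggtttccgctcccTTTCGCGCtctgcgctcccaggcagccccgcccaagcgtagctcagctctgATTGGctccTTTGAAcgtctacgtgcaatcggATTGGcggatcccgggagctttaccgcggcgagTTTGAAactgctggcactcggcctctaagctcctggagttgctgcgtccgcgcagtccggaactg
Ccnb2 (chr9:70421505-70421804, minus strand): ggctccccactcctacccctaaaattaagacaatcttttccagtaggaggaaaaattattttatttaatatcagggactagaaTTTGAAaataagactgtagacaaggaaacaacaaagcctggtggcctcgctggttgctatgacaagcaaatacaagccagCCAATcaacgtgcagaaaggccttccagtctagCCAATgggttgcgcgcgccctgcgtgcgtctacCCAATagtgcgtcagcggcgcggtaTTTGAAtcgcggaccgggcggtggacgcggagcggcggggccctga
Mki67 (chr7:135716330-135716629, minus strand): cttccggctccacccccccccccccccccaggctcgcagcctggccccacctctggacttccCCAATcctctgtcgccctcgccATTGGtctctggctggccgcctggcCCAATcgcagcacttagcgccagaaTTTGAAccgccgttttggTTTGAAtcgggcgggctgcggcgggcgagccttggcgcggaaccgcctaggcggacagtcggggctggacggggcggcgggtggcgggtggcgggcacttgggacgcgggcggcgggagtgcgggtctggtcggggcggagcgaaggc
Mcm6 (chr1:128359656-128359955, minus strand): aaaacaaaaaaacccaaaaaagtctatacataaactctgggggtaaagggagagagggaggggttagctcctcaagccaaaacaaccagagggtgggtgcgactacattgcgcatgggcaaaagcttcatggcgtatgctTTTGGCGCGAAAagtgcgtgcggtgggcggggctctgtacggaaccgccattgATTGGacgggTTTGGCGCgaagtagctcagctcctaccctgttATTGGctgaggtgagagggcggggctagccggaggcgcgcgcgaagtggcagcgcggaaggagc
Kif23 has a CCAAT box on the opposite strand a few bases before a CHR, and the promoters of Cdk1, Ccnb2 and Mki67 hold several of each. Rrm1 has CCAAT boxes and neither of the other motifs in this window.

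Most of the 41 genes differed little between the mutants and the wild-type mice. At a limma adjusted p under 0.05, 3 genes passed: Rrm1 was higher in the mutants, and Kif23 and Bub1 were lower. Over all genes tested the share called was 9.66%, with 2.96% called higher and 6.69% called lower. The arrays of the groups did not overlap for the same 3 genes, where 5.35% of all genes lay higher in the mutants without overlap and 9.4% lower, 14.7% in all. The 41 genes had a median log2 fold change of 0.02, beside 0.004 for all genes, and 38 of them had a log2 fold change smaller than 0.2 in size. The 95% interval of the difference lay within 1.5-fold in either direction for 40 of the 41, the exception being Kif23. In RNA of a whole organ, fewer cells of a type and less of a transcript per cell cannot be told apart.

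**Figure D1:**
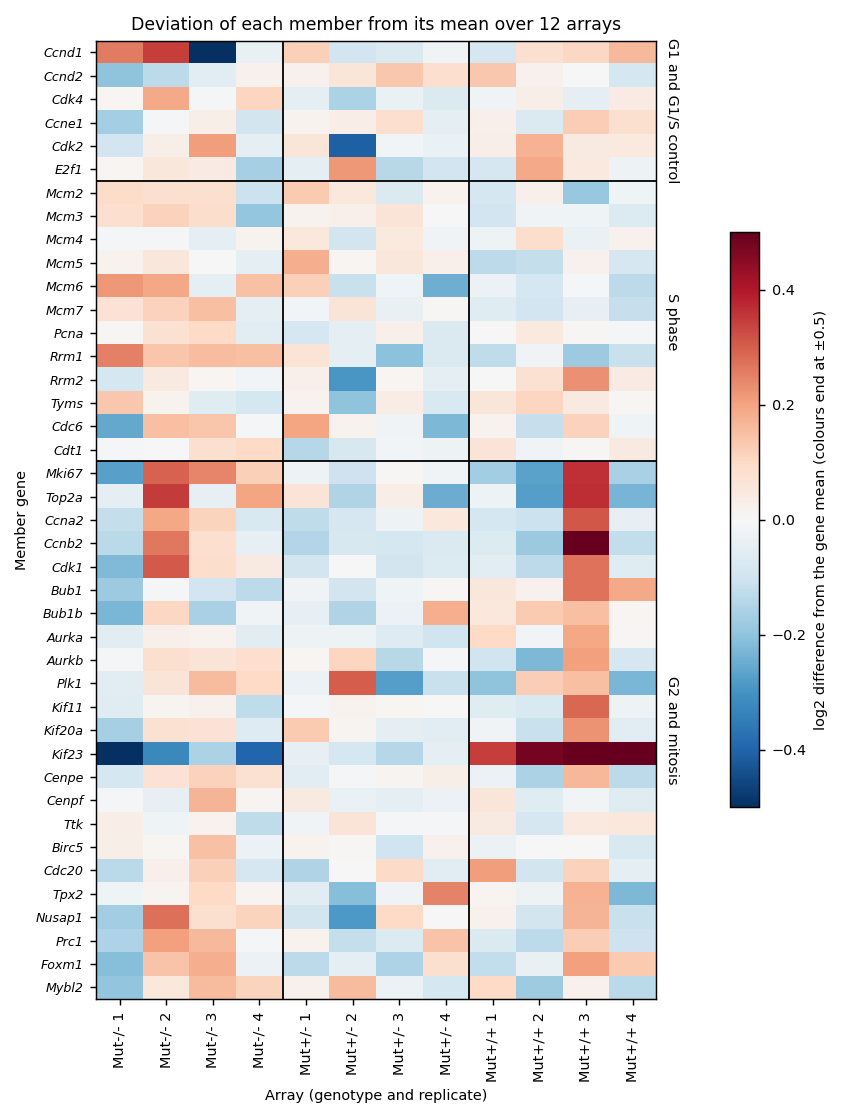
Each cell gives the log2 difference of 1 gene on 1 array from that gene's mean over the 12 arrays, for the 41 genes in 3 classes (down the page) and the 4 mutants, 4 heterozygotes and 4 wild-type mice (from left). Colours end at 0.5 in either direction. Kif23 is low in every mutant and high in every wild-type mouse, and wild type 3 is high for many G2 and mitosis genes.

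The 6 genes of G1 control showed no called difference, and 5 of the 6 were below 0, with a median log2 fold change of -0.07. Ccnd1, which encodes cyclin D1, the regulatory subunit of Cdk4, had 11.66, 11.74, 10.63 and 11.36 in the mutants, 11.52, 11.31, 11.33 and 11.38 in the heterozygotes, and 11.32, 11.48, 11.50 and 11.56 in the wild-type mice. Mutant 3 was the lowest of the 12 arrays and mutant 2 the highest, so the mutants spanned the other groups. The log2 fold change against wild type was -0.12 (SE 0.18, limma adjusted p = 0.754), and it turned to 0.12 without mutant 3.

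Cyclin D2 and cyclin E1 had the smallest p-values of this class. Ccnd2 had 8.63, 8.71, 8.78 and 8.86 in the mutants, against 8.97, 8.86, 8.83 and 8.75 in the wild-type mice. Ccne1, which encodes the cyclin that works with Cdk2, had 6.86, 7.02, 7.06 and 6.94 in the mutants, against 7.06, 6.96, 7.16 and 7.11 in the wild-type mice. The groups overlapped for both, with log2 fold changes of -0.11 and -0.10 (limma adjusted p = 0.307 and 0.331). Cdk4, the kinase partner of cyclin D, had 10.89, 11.07, 10.88 and 10.99 in the mutants, 10.84, 10.73, 10.85 and 10.81 in the heterozygotes, and 10.87, 10.91, 10.84 and 10.93 in the wild-type mice. All 4 mutants lay above all 4 heterozygotes, but not above the wild-type mice. The Cdk4 differences were 0.07 against wild type and 0.15 against heterozygotes (limma adjusted p = 0.445 and 0.169). Cdk2, the kinase partner of cyclin E, and E2f1, an E2F factor that activates S phase genes, differed by -0.05 and -0.04.

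Among the 12 S phase genes, 9 were above 0 in the mutants against wild type, with a median log2 fold change of 0.05, and 1 passed the test. Rrm1, which encodes the large subunit of ribonucleotide reductase, the enzyme that makes deoxyribonucleotides, had 8.38, 8.27, 8.29 and 8.28 in the mutants. The heterozygotes had 8.2, 8.08, 7.93 and 8.06, and the wild-type mice 8.01, 8.12, 7.95 and 8.02. Each mutant was above every heterozygote and every wild-type mouse, while heterozygotes and wild-type mice overlapped. Rrm1 rose 1.22-fold against wild type (log2 fold change 0.28, SE 0.06, limma adjusted p = 0.0107). Against heterozygotes the log2 fold change was 0.24, with a limma adjusted p of 0.0562, and heterozygotes differed from wild type by 0.04, with overlap. The two-sided exact permutation p was 0.0286 for both mutant comparisons, the smallest that 4 against 4 arrays can give.

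The gene of the other subunit was not called. Rrm2, which encodes the small subunit of ribonucleotide reductase, whose level is known to follow the cell cycle, had 7.30, 7.43, 7.4 and 7.37 in the mutants, against 7.39, 7.46, 7.61 and 7.43 in the wild-type mice. The groups overlapped, and the log2 fold change was -0.10 (limma adjusted p = 0.448). Tyms, which encodes thymidylate synthase, differed by -0.05.

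The 6 Mcm genes encode the subunits of the helicase that opens DNA at replication origins. Mcm7 had 7.87, 7.91, 7.94 and 7.75 in the mutants, 7.78, 7.86, 7.76 and 7.8 in the heterozygotes, and 7.73, 7.70, 7.75 and 7.68 in the wild-type mice. Mutant 4 fell inside the range of the wild-type mice and the other mutants lay above it. The Mcm7 log2 fold change against wild type was 0.15 (SE 0.05, limma adjusted p = 0.0762), and without mutant 4 it was called (adjusted p = 0.0278). Mcm6 had 8.35, 8.33, 8.09 and 8.28 in the mutants, against 8.10, 8.04, 8.12 and 8.0 in the wild-type mice. Mutant 3 overlapped the wild-type range, and the log2 fold change was 0.19 (SE 0.08, limma adjusted p = 0.136). Mcm2, Mcm3 and Mcm5 differed by 0.10, 0.07 and 0.09, and Mcm4 by -0.02, with no call. In Mcm2 and Mcm3 mutant 4 was the lowest mutant, at 7.96 and 5.98, against 8.15 to 8.16 and 6.25 to 6.28 in the other mutants.

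Pcna, the sliding clamp of the replication fork, was nearly level. It had 9.998, 10.07, 10.09 and 9.93 in the mutants, 9.91, 9.94, 10.02 and 9.92 in the heterozygotes, and 9.99, 10.04, 9.996 and 9.99 in the wild-type mice. The groups overlapped, and the difference of mutant against wild type was 0.02, with a 95% interval from -0.08 to 0.12. Cdc6 and Cdt1, which load the Mcm helicase onto origins, differed by 0.01 and 0.02.

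**Figure D2:**
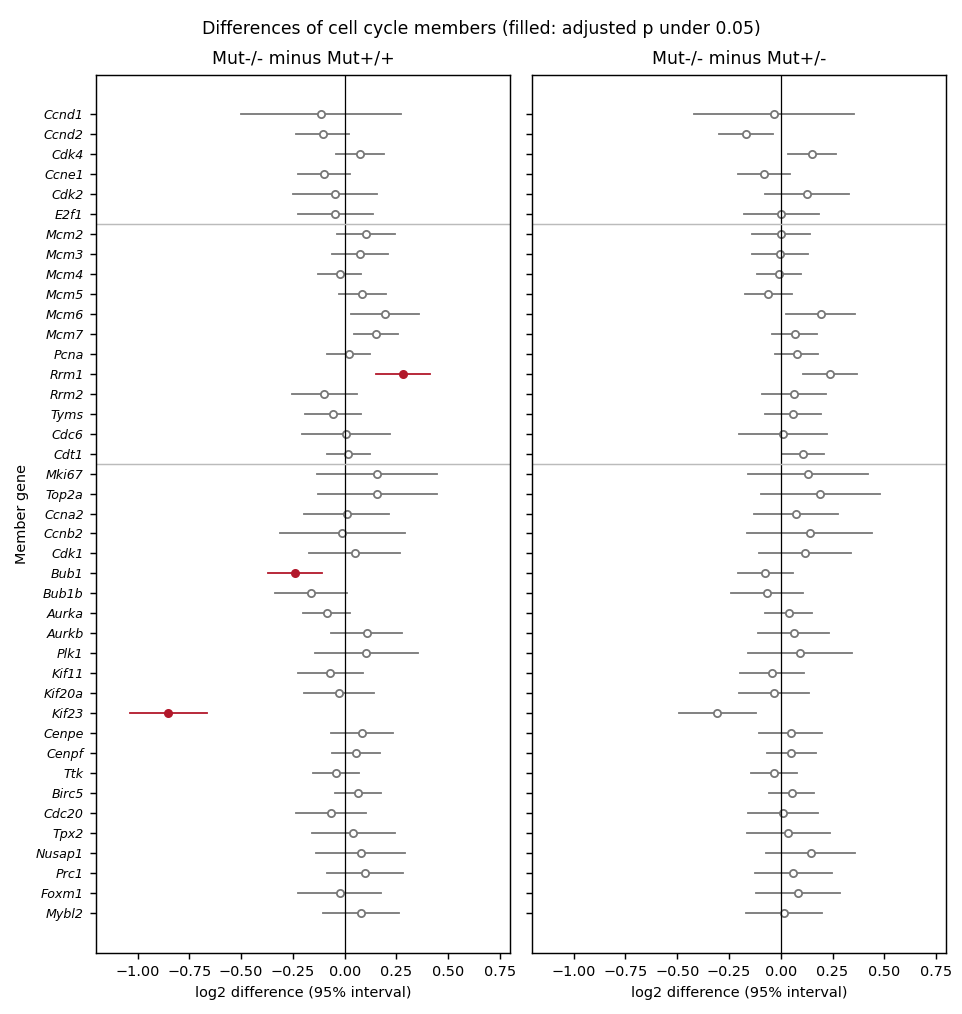
Points give the log2 difference of the group means for each of the 41 genes and bars its 95% interval from limma, for mutant minus wild type (left) and mutant minus heterozygote (right), with filled points for an adjusted p under 0.05. The interval of Kif23 lies wholly below 0 in both panels, and those of most other genes cross 0.

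In the 23 genes of G2 and mitosis, 13 were above 0 and 10 below in the mutants against wild type, and the median log2 fold change was 0.04. That median changed sign with the arrays included, and ran from -0.06 to 0.10 over the alternatives. The class mean was 6.31 ± 0.11 in the mutants, 6.28 ± 0.02 in the heterozygotes and 6.33 ± 0.13 in the wild-type mice (SD, n = 4 each). Both called genes of this class were lower in the mutants.

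Kif23 had the largest difference of the 41 genes. It encodes the kinesin of centralspindlin, which bundles microtubules between the separating chromosomes and is needed for cytokinesis. Its signals were 6.90, 7.25, 7.41 and 7.18 in the mutants, 7.53, 7.48, 7.43 and 7.53 in the heterozygotes, and 7.92, 8.05, 8.10 and 8.09 in the wild-type mice. The 3 genotypes did not overlap: every mutant was below every heterozygote, and every heterozygote was below every wild-type mouse. The highest mutant (7.41) and the lowest heterozygote (7.43) nearly touched. Of the 19934 genes, 127 had this descending order without overlap (0.637%) and 33 the ascending one (0.166%), and Kif23 was the only one of the 41 in either.

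Kif23 fell 1.8-fold in the mutants against wild type (log2 fold change -0.85, SE 0.09, limma adjusted p = 0.00014), 23rd of all genes by p-value. The heterozygotes were 1.46-fold lower than wild type (log2 fold change -0.55, SE 0.09, limma adjusted p = 0.0329). Mutants against heterozygotes gave a log2 fold change of -0.31 (SE 0.09, limma adjusted p = 0.0839). The two-sided exact permutation p was 0.0286 in each of the 3 comparisons, the smallest possible. Between mutant and wild type the call held under all 22 alternatives, with log2 fold changes from -0.998 to -0.758. The call between heterozygote and wild type ended without heterozygote 1, 2, 3 or 4 or wild type 2, 3 or 4, and it also ended in a fit blocked by replicate number (adjusted p = 0.0616); the adjusted p reached 0.139.

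Of 7 other genes of the cytokinesis machinery, chosen after their values were seen, Ect2 fell with Kif23 and the other 6 were not called. Over all genes tested 9.66% were called, so a count from 7 chosen genes is not read as a result. Racgap1, the other component of centralspindlin, had 6.20, 6.53, 6.45 and 6.47 in the mutants, against 6.26, 6.18, 6.33 and 6.29 in the wild-type mice, and its log2 fold change was 0.14 (limma adjusted p = 0.204). Ect2, the exchange factor that centralspindlin recruits to activate RhoA, had 6.87, 7.30, 6.71 and 6.95 in the mutants, 7.76, 7.30, 7.4 and 7.48 in the heterozygotes, and 7.35, 7.46, 7.70 and 7.54 in the wild-type mice. Its mutants lay below every wild-type mouse. Ect2 fell in the mutants against wild type (log2 fold change -0.55, SE 0.12, limma adjusted p = 0.013), while heterozygotes differed from wild type by -0.03. Prc1, which cross-links the midzone microtubules, differed by 0.10 (adjusted p = 0.539), and Kif20a, a midzone kinesin, by -0.03 (adjusted p = 0.865). Cep55, which acts in the final cut between daughter cells, and Incenp, the scaffold of the chromosomal passenger complex, lay higher in the mutants without overlap, by 0.19 and 0.24 (adjusted p = 0.145 and 0.0548). Over all genes 5.35% lay higher in the mutants without overlap. Anln, which encodes the ring protein anillin, differed by 0.07.

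No tested neighbour of Kif23 on chromosome 9 fell as far as Kif23 did. Of the 5 tested genes on each side, Rplp1, a ribosomal protein gene, rose in the mutants against wild type (log2 fold change 0.32, limma adjusted p = 0.00297), and Tle3, a transcriptional corepressor gene, fell (log2 fold change -0.28, limma adjusted p = 0.0139). The other neighbours were not called in this comparison, and none of the 10 was called in the comparisons with heterozygotes.

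**Figure D3:**
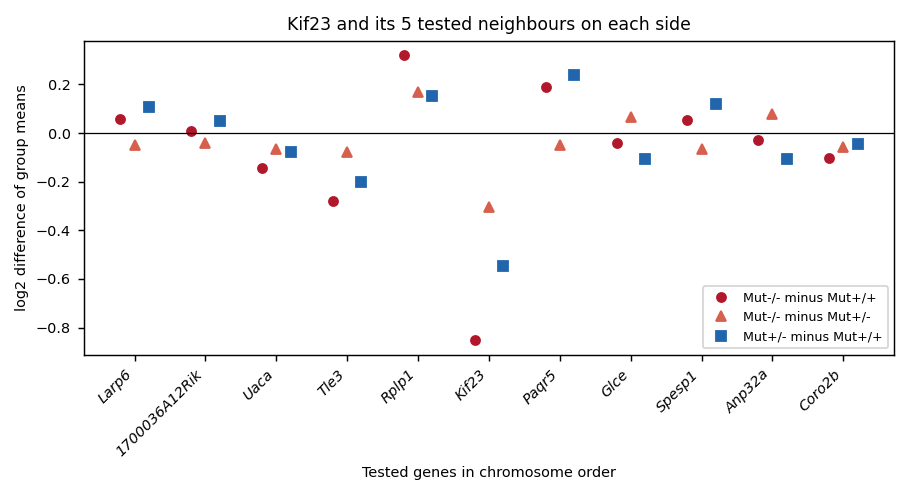
Log2 differences of group means for Kif23 and the 5 tested genes on each side, in chromosome order, for mutant minus wild type (circles), mutant minus heterozygote (triangles) and heterozygote minus wild type (squares). Kif23 lies at -0.85, -0.31 and -0.55, and no neighbour lies below -0.28.

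Bub1, a kinase of the spindle assembly checkpoint, had 4.98, 5.15, 5.07 and 5.03 in the mutants. The heterozygotes had 5.14, 5.07, 5.14 and 5.17, and the wild-type mice 5.22, 5.18, 5.43 and 5.35. Mutants and heterozygotes overlapped, and both lay below every wild-type mouse. Bub1 fell 1.18-fold in the mutants against wild type (log2 fold change -0.24, SE 0.06, limma adjusted p = 0.0253). The call ended without mutant 1, mutant 4, wild type 3 or wild type 4 and with only these groups in the fit, with adjusted p up to 0.08. The signal was also low: Bub1 was 1 of 9 genes of this class with no group mean of 6 or more, where RMA compresses differences.

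Its relative Bub1b, which encodes the checkpoint protein BubR1, had 6.33, 6.66, 6.40 and 6.54 in the mutants, against 6.61, 6.69, 6.71 and 6.57 in the wild-type mice. The groups overlapped and the log2 fold change was -0.16 (limma adjusted p = 0.24). The checkpoint kinase gene Ttk differed by -0.04, and Cdc20, the activator of the anaphase promoting complex, by -0.07.

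The widely used proliferation markers were not called. Mki67, which encodes Ki-67, a coat protein of mitotic chromosomes, had 6.67, 7.24, 7.18 and 7.06 in the mutants, 6.91, 6.84, 6.95 and 6.92 in the heterozygotes, and 6.77, 6.68, 7.31 and 6.78 in the wild-type mice. A mutant was the lowest array and wild type 3 the highest, apart from the other wild-type mice. The log2 fold change of mutant against wild type was 0.16 (SE 0.13, limma adjusted p = 0.533), with a 95% interval from -0.13 to 0.45. It was 0.30 without wild type 3 and -0.02 without mutants 2 and 3.

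Top2a, a DNA topoisomerase needed to separate chromosomes, had 5.85, 6.24, 5.85 and 6.09 in the mutants, 5.96, 5.74, 5.93 and 5.65 in the heterozygotes, and 5.87, 5.62, 6.26 and 5.66 in the wild-type mice. Cdk1, the kinase that starts mitosis, had 6.97, 7.5, 7.28 and 7.24 in the mutants, 7.10, 7.19, 7.10 and 7.12 in the heterozygotes, and 7.14, 7.06, 7.46 and 7.13 in the wild-type mice. Both genes were high in mutant 2 and wild type 3, and the groups overlapped. Their log2 fold changes against wild type were 0.16 and 0.05 (limma adjusted p = 0.522 and 0.827). The cyclins Ccna2 and Ccnb2, the kinases Aurka, Aurkb and Plk1, and the transcription factors Foxm1 and Mybl2 all had differences between -0.09 and 0.11.

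**Figure D4:**
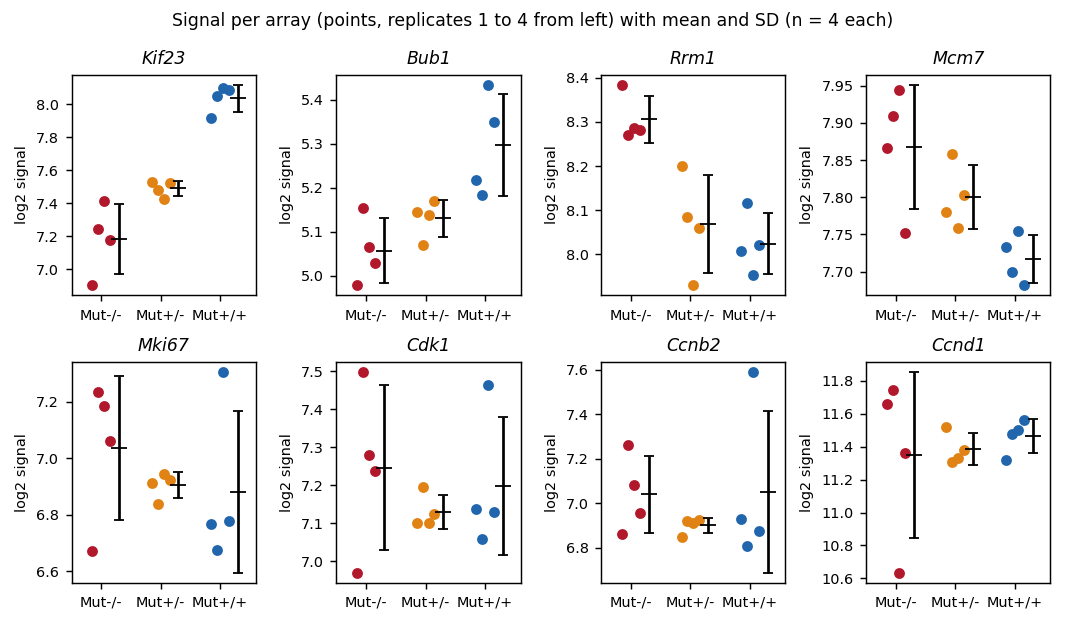
Log2 signal of 8 genes on each array (points), with the mean and SD of each group (n = 4), for mutants, heterozygotes and wild-type mice from left; each panel has its own axis, which does not start at 0. The genotypes do not overlap for Kif23, though the highest mutant (7.41) and the lowest heterozygote (7.43) are close. Rrm1 separates the mutants, and Mki67, Cdk1 and Ccnb2 each have 1 wild-type array far above the other 3.

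In the mitotic genes single mice differed from each other within the mutants and within the wild-type mice. The mean of the 23 G2 and mitosis genes was 6.17, 6.40, 6.38 and 6.29 in the mutants, 6.27, 6.27, 6.26 and 6.30 in the heterozygotes, and 6.30, 6.24, 6.52 and 6.26 in the wild-type mice. Wild type 3 was the highest and mutant 1 the lowest of the 12 arrays, so the extremes were in the groups at either end of the comparison and the heterozygotes spanned little. Wild type 3 was the highest array of all for 12 of the 23 genes and the highest wild-type mouse for 18, and mutant 1 was the lowest mutant for 18. For Ccnb2, which encodes cyclin B2, wild type 3 had 7.59, and the other wild-type mice 6.81 to 6.93. In S phase genes wild type 3 was also the highest wild-type mouse, but by less, with a class mean of 7.652, beside 7.622, 7.647 and 7.62 in the other wild-type mice.

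With the group means removed, the G2 and mitosis genes varied together over the 12 arrays. Their 253 pairs had a median Pearson r of 0.458, and 234 pairs were above 0, while the 66 pairs of S phase genes had a median of 0.145, pairs between these classes 0.067 and all genes tested 0.008. These correlations are descriptions over arrays that share 1 normalization. The median for G2 and mitosis was 0.361 without wild type 3, and 0.226 without that array and mutants 1 and 2. The genes closest to Mki67 were Cdk1 (r = 0.921), Cenpe, a kinetochore kinesin gene (r = 0.908), Ccnb2 (r = 0.904) and Ccna2, which encodes cyclin A2 (r = 0.895). Among S phase genes Rrm1 ran opposite to Mki67 (r = -0.561), as did Mcm2 (r = -0.466), and Cdc6 (r = 0.671), Rrm2 (r = 0.638) and Mcm5 (r = 0.494) ran with it. Kif23 had an r of 0.665 with Mki67 within genotypes, although Mki67 did not share its difference between them. The 13 genes with a CHR in the promoter had a median r with their class of 0.534, and the 5 without one had 0.517.

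**Figure D5:**
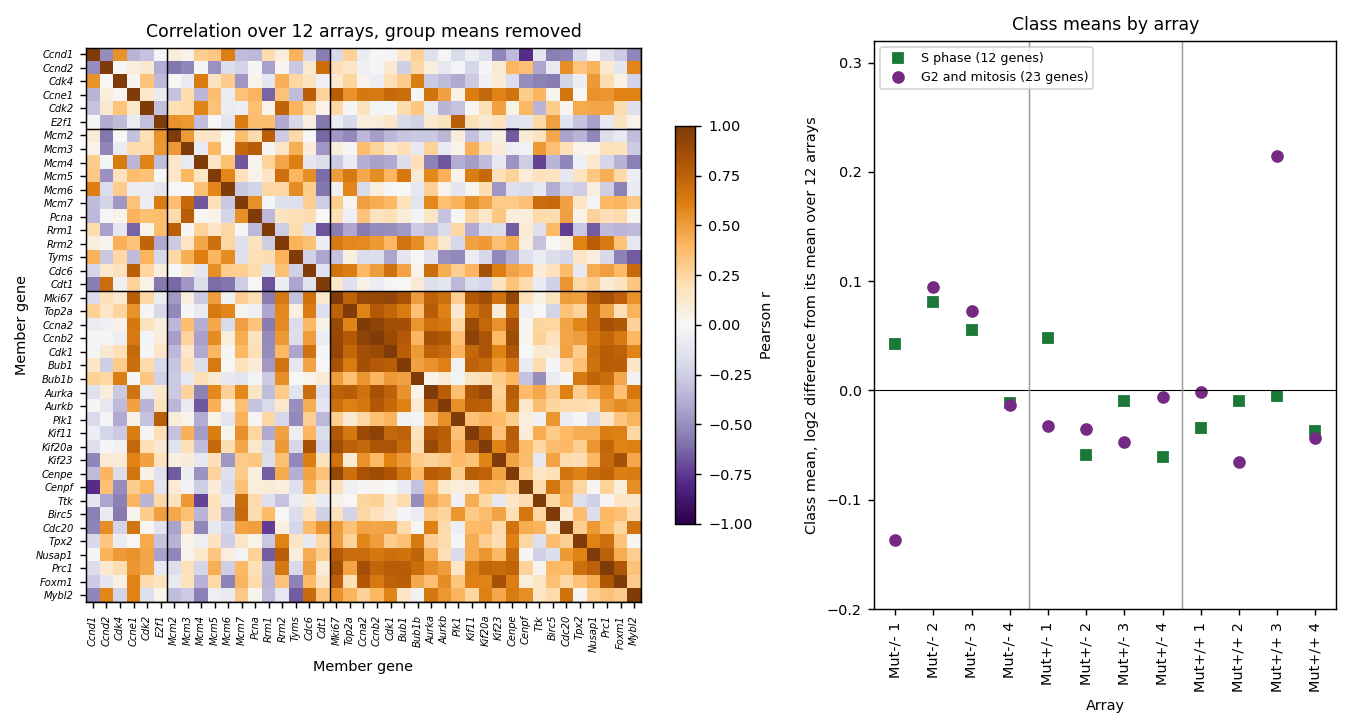
Left, Pearson r between each pair of the 41 genes over 12 arrays after the group means were subtracted, with lines between the 3 classes; right, the mean of the 12 S phase genes (squares) and of the 23 G2 and mitosis genes (circles) on each array, as a log2 difference from its mean over the arrays. The G2 and mitosis block is mostly positive, and wild type 3 lies highest and mutant 1 lowest in the G2 and mitosis mean.

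Some marker genes of other cells also moved between the groups, and their part in the cell cycle values was not tested. Neutrophil markers, 8 measured, had a mean of 7.37 in mutant 2, against 5.88 to 6.12 on the other mutant and the heterozygote arrays and 5.86 to 6.02 in the wild-type mice. Mutant 2 was also the highest for macrophage markers (8.34, beside 7.52 to 7.74 in the wild-type mice) and for the 4 measured erythroid markers (9.07, beside 7.8 to 7.95). It did not stand alone in these. The other mutants had macrophage means from 7.56 to 8.15 and erythroid means from 7.74 to 8.42. The heterozygotes had 7.595 to 8.10 and 7.64 to 8.135. Of 11 macrophage markers 2 rose and 1 fell in the mutants against wild type, where 2.96% of all genes rose and 6.69% fell. Of these 11 markers 10 were above 0 and 1 below. Of 8 neutrophil markers 0 were called, and of 4 erythroid markers 1 rose. Of 10 injured tubule markers 4 rose and 0 fell in the mutants against wild type, where 2.96% of all genes rose. Their list means were 8.18 to 9.21 in the mutants, 7.97 to 8.26 in the heterozygotes and 7.78 to 7.95 in the wild-type mice. Endothelial markers fell in 4 of 10 cases and podocyte markers in 3 of 5, where 6.69% of all genes fell. Of the thick ascending limb and distal tubule markers 3 of 7 fell, all 7 were below 0 and the median log2 fold change was -0.34. Their list means were 10.84 to 11.42 in the mutants, 11.53 to 11.65 in the heterozygotes and 11.585 to 11.62 in the wild-type mice. Of the proximal tubule markers 2 of 11 fell, 6 were below 0 and 5 above. Their median log2 fold change was -0.09 and the lowest was -2.65, so a large fall of 1 gene weighs on the list mean. The list means were 11.84 to 12.31 in the mutants, 12.35 to 12.41 in the heterozygotes and 12.39 to 12.42 in the wild-type mice. For both segments the list means of the mutants lay below those of all other mice. B and plasma cell markers, of which 1 of 7 rose, had list means of 7.84, 7.12, 7.16 and 7.91 in the mutants, 7.15, 7.21, 8.21 and 7.80 in the heterozygotes, and 7.14, 7.03, 7.15 and 6.90 in the wild-type mice. Mutants 1 and 4 and heterozygotes 3 and 4 were the high arrays. Of 8 T and NK cell markers 0 were called. Of 9 collecting duct markers 1 rose and 2 fell, and of 9 fibroblast, pericyte and smooth muscle markers 1 fell. Wild type 3, the array highest in mitotic genes, had a neutrophil mean of 6.021, the highest of the wild-type mice (others 5.858 to 6.006). Its macrophage and erythroid means of 7.611 and 7.887 lay between those of the other wild-type mice.

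Against the heterozygotes the mutants had 0 called genes of the 41, where 2.54% of all genes were called by limma. At an unadjusted p under 0.05, 4 were higher and 2 lower, where 15.4% of all genes passed. The arrays of the groups did not overlap for Cdk4, Cdt1 and Rrm1, higher in the mutants, and for Kif23, lower. For Cdt1 the lowest mutant (7.107) and the highest heterozygote (7.104) nearly touched, as they did for Kif23. Over all genes 4.04% lay higher without overlap and 5.65% lower, 9.69% in all. The interval lay within 1.5-fold for all 41 genes. The medians of the S phase and of the G2 and mitosis classes were 0.06 and 0.05, beside -0.008 for all genes.

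Between heterozygotes and wild-type mice Kif23 alone was called, where 0.135% of all genes were, 0.0702% as lower. The arrays did not overlap for Mcm3 and Mcm7, higher in the heterozygotes, and for Bub1, Aurka and Kif23, lower. Over all genes 3.18% lay higher without overlap and 5.26% lower, 8.44% in all. Mcm3 had 6.19, 6.19, 6.23 and 6.17 in the heterozygotes, against 6.07, 6.15, 6.14 and 6.10 in the wild-type mice, a difference of 0.08 (limma adjusted p = 0.662). Aurka, a kinase of spindle poles, had 7.04, 7.04, 7.0 and 6.96 in the heterozygotes, against 7.16, 7.05, 7.26 and 7.07 in the wild-type mice, a difference of -0.13 (limma adjusted p = 0.393).

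Further lists of cell cycle genes held 181 measured genes, of which 4 rose and 11 fell in the mutants against wild type. Over all genes 2.96% rose and 6.69% fell, so the lists as a whole were near the background. The shares called were above the 9.66% of all genes in the G1 (4 of 25) and histone (3 of 16) lists. They were little above it for CDK inhibition and arrest (2 of 18) and the anaphase promoting complex (1 rose and 1 fell of 15). They were below it for other DNA replication (1 of 48) and other mitosis and cytokinesis (3 of 59). With so few genes called per list, these shares are not read as results about the lists. Of 25 other G1 cyclins, kinases and E2F or retinoblastoma family genes 1 rose and 3 fell, with a median of -0.009. Myc, the growth-promoting transcription factor, had 8.71, 8.01, 8.23 and 8.33 in the mutants, 7.35, 7.38, 7.57 and 7.38 in the heterozygotes, and 7.41, 7.26, 7.56 and 7.54 in the wild-type mice. All mutants lay above all other mice, and Myc rose 1.84-fold (log2 fold change 0.88, SE 0.12, limma adjusted p = 0.000807). The 3 that fell were Lin52, a subunit of the complex that represses or activates cell cycle genes (log2 fold change -0.39), Ccnh of the Cdk-activating kinase (-0.38) and Rb1, the retinoblastoma gene (-0.35). Rb1 had 9.76, 9.86, 9.69 and 9.90 in the mutants, against 10.10, 10.16, 10.10 and 10.24 in the wild-type mice, without overlap (limma adjusted p = 0.00465). The call of Ccnh ended without mutants 2 and 3 (adjusted p = 0.0554).

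Of 18 measured genes of CDK inhibition and cell cycle arrest 2 rose and 0 fell, with a median of 0.11. Gadd45a, a growth arrest gene induced by DNA damage, had 9.11, 8.89, 8.99 and 9.18 in the mutants, 8.56, 8.39, 8.64 and 8.62 in the heterozygotes, and 8.36, 8.43, 8.46 and 8.59 in the wild-type mice. The mutants lay above all other mice (log2 fold change 0.58, limma adjusted p = 0.00062). Btg1, an antiproliferative gene, rose by 0.37 (adjusted p = 0.00848), and its call ended without mutants 2 and 3 (adjusted p = 0.0555).

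Of 48 other DNA replication genes 0 rose and 1 fell, with a median of 0.02. This was Rpa3, the smallest subunit of the single-strand binding protein RPA (log2 fold change -0.29, limma adjusted p = 0.0299). Its call ended without mutant 2 or 3 or wild type 2, 3 or 4 and with only these groups in the fit (adjusted p up to 0.0994), and without mutants 2 and 3 together (adjusted p = 0.218).

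Of 59 other genes of mitosis and cytokinesis 0 rose and 3 fell, with a median of 0.04. Besides Ect2 these were Spc25, a subunit of the Ndc80 complex of the kinetochore, and Stmn1, which encodes the microtubule destabiliser stathmin. Spc25 had 8.27, 8.35, 8.26 and 8.37 in the mutants, 8.76, 8.31, 8.52 and 8.55 in the heterozygotes, and 8.79, 8.73, 8.70 and 8.81 in the wild-type mice. The mutants lay below all wild-type mice (log2 fold change -0.44, SE 0.08, limma adjusted p = 0.0035). Stmn1 had 10.12, 9.97, 9.92 and 9.89 in the mutants, against 10.18, 10.25, 10.34 and 10.35 in the wild-type mice (log2 fold change -0.31, limma adjusted p = 0.00587). Against heterozygotes Ect2 and Stmn1 also fell, by 0.53 and 0.29, and Kif18a, a kinesin gene of chromosome alignment, rose by 0.22 (adjusted p = 0.0379, 0.0183 and 0.0327). Ect2 lost that call without mutant 1, 3 or 4, heterozygote 1, 3 or 4 or wild type 2 or 4, with the block (adjusted p = 0.0846) and with only these groups in the fit, with adjusted p up to 0.11. Stmn1 lost it without heterozygote 1, 3 or 4, with only these groups and without mutants 2 and 3, with adjusted p up to 0.0992.

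Of 16 measured histone genes 0 rose and 3 fell against wild type, with a median of 0.02. H1f2, a linker histone, had 10.05, 10.13, 10.62 and 10.23 in the mutants, 10.34, 10.51, 10.52 and 10.38 in the heterozygotes, and 10.85, 11.05, 10.97 and 11.31 in the wild-type mice. Mutants and heterozygotes overlapped and both lay below the wild-type mice, with a log2 fold change of -0.79 in the mutants (limma adjusted p = 0.0013) and -0.61 in the heterozygotes (adjusted p = 0.0771). H2bc4 and H2aw, which encode core histones, fell by 0.59 and 0.35 in the mutants (adjusted p = 0.000203 and 0.00794). Histone genes are close copies of each other, so probes may read several of them. Of 15 subunits of the anaphase promoting complex, which ends mitosis, Anapc5 rose by 0.26 (adjusted p = 0.00736) and Anapc10 fell by 0.36 (adjusted p = 0.000984). The call of Anapc5, which has 5 probe sets, ended when their mean was used (adjusted p = 0.319).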

How the data were processed

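RNA from each mouse's kidney was run on 1 Affymetrix array. The sample descriptions name a mouse gene array and the labelling text a human one, and the probe sets matched mouse genes. The deposited values are log2 signals, 1 for each probe set, made by the authors with RMA in Affymetrix Expression Console, version 1.2.1, per the submitters' processing notes. RMA removes background, gives all arrays 1 distribution and combines the probes of a set. It gives no detection call and compresses differences near background. All 35552 probe sets had values in all 12 columns, and 21785 of them carried 1 symbol in the platform annotation. Their genome build was not used, and printed coordinates belong to the RefSeq promoters. Array medians lay between 7.17 and 7.23.

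Groups and replicate numbers came from the sample titles. One limma fit of all 12 arrays (lmFit and eBayes, 9 residual and 4.408 prior degrees of freedom) gave each difference, with Benjamini-Hochberg adjustment over 19934 genes and a call under 0.05. The limma p-values weigh each difference of group means against the spread between these mice. The genes and lists were chosen with earlier results of these data known, from general knowledge, and 29 histone symbols were brought to RefSeq names. Values per array are given for those of the 41 genes called in any comparison and for the 3 smallest p-values of each class between mutant and wild type. They are also given for Mki67, Top2a, Pcna, Cdk1 and Ccnd1, and for genes that a sentence turns on. Up to 4 called genes of each further list were named. The 7 other cytokinesis genes, Rrm2, Kif18a, the neighbours of Kif23 and the genes without overlap in the comparisons with heterozygotes were named after their values were seen. The fit was tested on simulated data of mutant against wild type, with normally distributed noise and 50 of 19934 genes changed at each size. It called 25 of 50 changes of 0.3 on the log2 scale, 40 of 50 of 0.5 and 50 of 50 of 1. A small change can therefore go uncalled. Fewer genes were changed in the simulation than were called in these data (1925). The cutoff on the p-value was stricter there, so these counts do not give the power of the comparison here. Alternatives were a block by replicate number, leaving out each array, a minimum group mean of 6, averaging the probe sets of each gene, every probe set on its own, array weights, a trended and robust prior, fits of only the groups compared, centred array medians, quantile normalization, a 1.5-fold threshold and a threshold of 0.1 on the adjusted p. A fit without mutants 2 and 3 was added after seeing the data, as were correlations without wild type 3. Tools were R 4.3.3, limma 3.58.1, the package data.table (version 1.17.8), Python 3.11.15, numpy 2.4.6, pandas 2.3.3 and matplotlib 3.10.9.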

Additional observations from a re-analysis of the deposited data

Results flagged for a closer look

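Among 180 groups of 4 arrays examined, 13 held 1 array far from the other 3, where chance gives about 1 in 20. Wild type 3 stood above the other wild-type mice in 4 G2 and mitosis genes. It had 7.31 for Mki67 (others 6.68 to 6.78), 7.32 for Ccna2 (6.90 to 6.96), 7.59 for Ccnb2 (6.81 to 6.93) and 6.13 for the spindle kinesin gene Kif11 (5.77 to 5.81). Mutant 4 stood below the other mutants at 7.96 for Mcm2 (8.15 to 8.16) and at 5.98 for Mcm3 (6.25 to 6.28). Mutant 1 stood above them at 8.38 for Rrm1 (8.27 to 8.29). Wild type 2 had 7.68 for Cdk2 (7.54 to 7.56) and 5.11 for Ttk (5.24 to 5.25), and heterozygote 2 had 5.26 for Ttk (5.18 to 5.19). Heterozygote 3 had 6.43 for Birc5, a subunit of the chromosomal passenger complex (6.53 to 6.55), and 7.57 for Myc (7.35 to 7.38). Heterozygote 4 had 8.35 for Rpa3 (8.23 to 8.25).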

How the results depend on the processing

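Of 75 values of named genes under 22 alternatives (21 for Bub1, which a minimum group mean of 6 removes), 50 kept their call and sign, 12 lost or gained a call and 13 changed sign without being called in the main setting or any alternative. The cause was not tested. Called genes among the 41 numbered 3 between mutant and wild type, with 2 to 3 when single arrays were left out and 1 at 1.5-fold. Between mutant and heterozygote they numbered 0, and 0 to 1 when single arrays were left out. There was 1, Rrm1 or Kif23, with array weights, a minimum group mean of 6, all probe sets kept apart, a trended and robust prior, quantile normalization and without mutants 2 and 3, and 2 at an adjusted p under 0.1. Between heterozygote and wild type the number was 1, and 0 to 1 when single arrays were left out, and 0 with the replicate block and at 1.5-fold. Over all genes the counts were 1925, 506 and 27, and with the block 1552, 405 and 7. The first was 1019 without wild type 4, 1125 without wild type 2, 1075 without mutants 2 and 3, 1154 with only these groups, 207 at 1.5-fold and 2978 at an adjusted p under 0.1. The second ran from 99 at 1.5-fold to 935 at an adjusted p under 0.1, and the third from 5 without wild type 4 to 163 with array weights. Residuals of arrays with the same replicate number had r from -0.239 to 0.168, and those with different numbers from -0.201 to 0.263. In every other group, 0 arrays matched best with their own number. Whether arrays shared a litter or batch was not tested. The S phase median was 0.0079 without mutants 2 and 3, and -0.0397 to 0.0542 between heterozygote and wild type when single arrays were left out. The residual correlation was 0.361 without wild type 3 and 0.226 without mutants 1 and 2 as well. Without mutants 2 and 3 the sign turned for Mki67 (-0.0164 against wild type and -0.0399 against heterozygote), Pcna (-0.0371), Cdk1 (-0.0953 and -0.0273) and Ccnd1 (0.0453 and 0.127). With array weights Ccnd1 was 0.000184 against wild type and 0.0801 against heterozygote. When single arrays were left out, mutant against wild type ran from -0.00327 to 0.0489 for Pcna, from -0.0364 to 0.140 for Cdk1 and from -0.247 to 0.123 for Ccnd1, and mutant against heterozygote from -0.165 to 0.205 for Ccnd1. Heterozygote against wild type ran from -0.000507 to 0.0899 for Rrm1, -0.0555 to 0.0101 for Ccne1, -0.0595 to 0.0615 for Mcm6, -0.0452 to 0.165 for Mki67, -0.113 to 0.103 for Top2a and -0.114 to 0.0210 for Cdk1. In that comparison Mcm6 was -0.00737 with array weights and -0.0130 with centred medians, and Mki67 was -0.0177 with quantile normalization. No alternative moved the median of all genes by over 0.017. Low signal limits 9 G2 and mitosis genes.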

Other observations

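Pttg1, which encodes securin, the inhibitor of sister chromatid separation, was low in 2 of the 12 mice, and was picked out after its values were seen. It had 9.82, 10.20, 8.11 and 10.29 in the mutants, 10.34, 10.21, 8.02 and 9.62 in the heterozygotes, and 10.19, 10.30, 10.25 and 10.26 in the wild-type mice. Mutant 3 and heterozygote 3 lay far below the other arrays of both groups. The log2 fold change was -0.64 for mutant against wild type (limma adjusted p = 0.473) and -0.70 for heterozygote against wild type (limma adjusted p = 0.619).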
